A study of Mus musculus with 6 samples.

Results

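Chaperones are proteins that help other proteins reach and keep their folded shape. The genes described here encode heat shock proteins of the HSP70, HSP110, HSP90 and small HSP families, the mitochondrial chaperonin, the cytosolic chaperonin CCT (also called TRiC), and the J proteins that direct HSP70 to its clients. They were chosen by symbol: names starting with Hspa, Hspb, Hsp90a, Cct, Dnaja, Dnajb or Dnajc and a number, with Hspd1, Hspe1, Hsph1 and Tcp1, and without Hspa5 and Dnajb9. The rule found 79 of the 23358 rows of the table: 10 HSP70 genes, 3 HSP110 genes, 2 HSP90 genes, 2 genes of the mitochondrial chaperonin, 8 small heat shock protein genes, 10 CCT genes and 44 J protein genes. No expression value entered the choice.

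The cells were C57BL/6 mouse mesenchymal stem cells of marrow origin, adherent progenitors of bone, fat and cartilage cells, sequenced as bulk RNA at passage 6 to 12. The 2 groups of 3 libraries came from cells given a non-targeting siRNA and from cells given 1 siRNA sequence against Dia2, the formin encoded by Diaph3, at 50 nM. Cells had adhered for 24 h before an overnight lipid transfection that both groups received, and RNA was collected 24 h after the medium was replaced. Whether replicate libraries stem from separate cultures is not stated, so each p-value reflects only how far these libraries scatter, and that scatter may be technical.

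Total gene counts ranged from 70538768 to 110006338 per library. Diaph3 itself, listed in the table as Diap3, fell from 83.2 ± 2.7 to 7.76 ± 0.532 CPM (mean ± SD, n = 3 each; log2 fold change -3.42 ± 0.07 SE, adjusted p = 1.66e-11). CPM here are counts scaled to library size with TMM factors, and adjusted p-values are from edgeR's quasi-likelihood test over all 14151 genes tested. Summed over 10 mesenchymal stem cell markers, 2908 to 3208 CPM were found in the control libraries and 5251 to 5321 CPM in the Dia2 libraries, although Thy1, one of them, stood at 0.02 and 0.0356 CPM. Markers of blood cells summed to 10.6 to 11.5 CPM and 4.89 to 7.05 CPM (9 genes, with Tyrobp at 0), and those of endothelium to 1.34 to 1.51 CPM and 0.812 to 0.958 CPM (5 genes, with Emcn at 0). The part of these marker levels in the results below was not tested. In bulk RNA a change in the make-up of the culture and a change of RNA per cell cannot be told apart. The ribosomal precursor Rn45s took 6.0% to 11.7% of counts, with its high values in control replicate 3 and Dia2 replicate 1.

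As background, HSP70 binds short exposed stretches of unfolded chains and releases them as it turns over ATP. J proteins carry a domain that stimulates this ATP hydrolysis, HSP110 proteins exchange the nucleotide, and HSP90 receives a part of the clients for late folding steps. CCT is a closed ring-shaped chamber in which each subunit occurs once per ring, and actin and tubulin depend on it for folding. The mitochondrial chaperonin is built from Hspd1 (HSP60) and its lid Hspe1 (HSP10). The transcription factor Hsf1 raises many of these genes when proteins unfold, and the small heat shock proteins hold unfolded chains without using ATP.

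Abundant chaperone genes were mostly lower in cells with Dia2 siRNA. Of 7 small heat shock protein genes tested 4 were higher and 1 was lower. Those 4 include Hspb11, which is not a classical chaperone. Of the 79 members 69 passed the filter on low counts and were tested. Among these 34 fell, 15 rose and 20 did not pass an adjusted p of 0.05. Over all genes tested 59.2% passed in either direction, with 29.9% lower and 29.3% higher, against 49.3% lower and 21.7% higher of the members tested. The median log2 fold change of the members was -0.12, and that of all genes tested was 0.005 on the same scale. The 3 Dia2 libraries all lay below the 3 control libraries for 36 members, 18 members lay all above and 15 overlapped. Over all genes tested such complete separation held for 64.6%, with 32.2% below and 32.3% above.

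The members differed by abundance. Of 24 members with a mean of at least 100 CPM, a limit chosen after the values were seen, 21 were lower and 3 were higher. Among all 2034 genes at that level 38.5% were lower and 33.2% higher. The 3 higher ones were the J protein genes Dnajb11, Dnajc10 and Dnajc14, whose row overlaps that of Ormdl2. Summed over the 79 members, control libraries held 15790 to 16420 CPM and Dia2 libraries 13080 to 13370 CPM. The ratio of the group means was 1.22, and the sums did not overlap. Hsp90ab1 (3946 CPM), Hspa8 (2626 CPM) and Hsp90aa1 (1041 CPM) held the largest parts of the control mean of 16100 CPM. By class the ratio ran from 1.66 for the mitochondrial chaperonin over 1.05 for the J proteins to 0.82 for the small heat shock proteins.

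**Figure D1:**
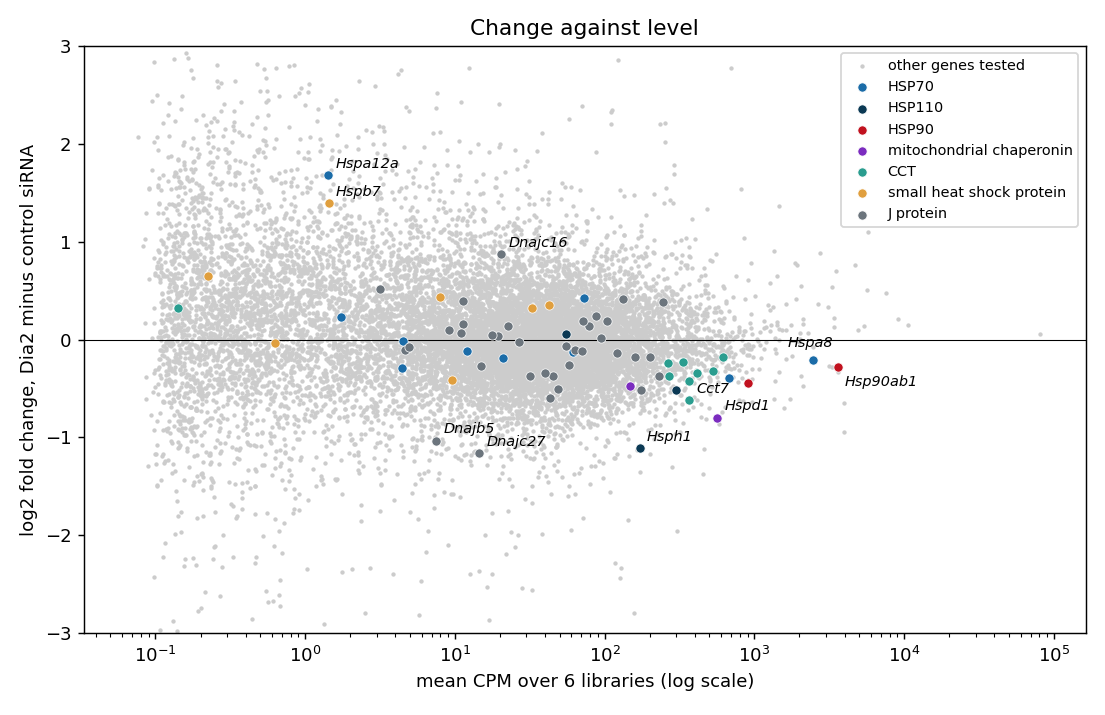
Log2 fold change (Dia2 minus control siRNA, vertical axis) against mean CPM over the 6 libraries (horizontal log axis) for each tested gene, with genes beyond 3 on either side left out of view. Coloured points are the 69 members by class, grey points the other tested genes. The members at the right side of the plot lie mostly below 0, and the highest, Hspa12a and Hspb7, lie near 1 to 2 CPM.

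The constitutive HSP70 of the cytosol, Hspa8, was the most abundant gene of its family per length (1065 RPKM in the control libraries) and fell slightly. Its level was 2663, 2652 and 2562 CPM in control replicates 1, 2 and 3 and 2289, 2279 and 2252 CPM in Dia2 replicates 1, 2 and 3. All Dia2 libraries were below all control libraries, at a log2 fold change of -0.21 ± 0.04 (adjusted p = 0.000694), or 1.16-fold lower. Hspa9 encodes mortalin, the HSP70 of the mitochondrial matrix that pulls in imported chains. It stood at 790, 752 and 750 CPM in the control libraries and 586, 583 and 572 CPM in the Dia2 libraries (-0.40 ± 0.04, adjusted p = 9.3e-06).

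Hspa1a and Hspa1b, the stress-inducible pair, were called lower, but leaving out single libraries ended both calls. Hspa1b lay at 22.2, 23.6 and 21.2 CPM with control siRNA and 20.1, 19.1 and 19.6 CPM in the Dia2 libraries (-0.19 ± 0.06, adjusted p = 0.019), and did not pass without control replicate 2 (0.0545) or Dia2 replicate 2 (0.0818). Hspa1a lay at 5.09, 5.24 and 4.21 CPM and at 3.85, 3.79 and 4.25 CPM, so the groups overlapped. Its call (-0.29 ± 0.11, adjusted p = 0.0365) was lost without control replicate 1 or 2 or Dia2 replicate 1 or 2 (adjusted p = 0.0976 to 0.123). The coding sequences of this pair are 99.4% identical over 1929 aligned positions of the GENCODE M21 transcripts. Reads may therefore have been divided between them, and the single values are uncertain.

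Other HSP70 genes moved both ways. Hspa13, whose product lies in microsomes, rose from 59.0, 59.1 and 68.8 CPM to 88.6, 83.6 and 79.5 CPM (0.43 ± 0.07, adjusted p = 0.000126). Hspa12a, a distant relative of HSP70, had the largest rise of all members. Its levels were 0.623, 0.633 and 0.783 CPM with control siRNA and 2.47, 2.06 and 1.99 CPM with Dia2 siRNA, which did not overlap (1.68 ± 0.18, adjusted p = 6.2e-06, 3.21-fold). Its relative Hspa12b, at 4.53 ± 0.321 and 4.52 ± 0.431 CPM, differed by -0.01 ± 0.11 (adjusted p = 0.943). Hspa14, which works at the ribosome with the J protein Dnajc2, was lower at -0.12 ± 0.05 (adjusted p = 0.0339). That call was lost without any 1 of the libraries other than control replicate 3 (adjusted p = 0.0625 to 0.134). Hspa2 and Hspa1l did not pass at -0.12 ± 0.07 (adjusted p = 0.136) and 0.23 ± 0.15 (adjusted p = 0.227), and Hspa2 passed without control replicate 3 (-0.16, adjusted p = 0.0427). In all, 5 HSP70 genes were lower, 2 higher and 3 neither.

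HSP110 genes held the largest fall among the abundant chaperones. Hsph1, a nucleotide exchange factor for HSP70 and itself a heat shock gene, lies on chromosome 5 (149616845 to 149636315, GRCm38). It was measured at 243, 229 and 230 CPM in the control libraries and at 109, 108 and 108 CPM in the Dia2 libraries. The values of the groups were far apart, with a log2 fold change of -1.11 ± 0.04 (adjusted p = 2.11e-09), or 2.16-fold lower. Its relative Hspa4 went from 362, 336 and 365 CPM to 255, 246 and 244 CPM (-0.51 ± 0.05, adjusted p = 2.27e-06). Hspa4l, the third gene of the class, overlapped between groups at 53.6 ± 2.57 and 55.9 ± 3.71 CPM (0.06 ± 0.06, adjusted p = 0.413).

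Both cytosolic HSP90 genes were lower. Hsp90ab1, the constitutive isoform, had the highest level of all members per length, at a mean of 1345 RPKM (the deposited values scaled to length and depth) in the control libraries. Its CPM values were 4089, 4101 and 3648 with control siRNA and 3224, 3280 and 3280 with Dia2 siRNA (-0.28 ± 0.05, adjusted p = 0.00043). Hsp90aa1, the more inducible isoform, was at 1047, 985 and 1091 CPM and at 795, 760 and 739 CPM (-0.45 ± 0.05, adjusted p = 1.19e-05). Neither pair of groups overlapped. The count ratio of Hsp90aa1 to Hsp90ab1 was 0.256, 0.24 and 0.299 with control siRNA and 0.2465, 0.232 and 0.225 with Dia2 siRNA. These ratios overlapped (exact two-sided permutation test, p = 0.2, also 0.2 after Benjamini-Hochberg adjustment over the 3 ratios computed).

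The mitochondrial chaperonin genes fell together but not by the same amount. Hspd1 was measured at 731, 681 and 737 CPM in control libraries and at 432, 410 and 394 CPM in Dia2 libraries (-0.80 ± 0.05, adjusted p = 1.11e-07, 1.74-fold lower). For Hspe1 the values were 171, 164 and 179 CPM against 128, 124 and 118 CPM (-0.47 ± 0.05, adjusted p = 5.56e-06, 1.39-fold lower). No Dia2 library reached a control library for either gene. The count ratio of Hspd1 to Hspe1 was 4.28, 4.16 and 4.11 with control siRNA and 3.36, 3.32 and 3.34 with Dia2 siRNA. That difference gives p = 0.1 in the exact two-sided permutation test, the smallest value that 3 libraries against 3 allow (0.15 after adjustment over the 3 ratios).

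Hspd1 and Hspe1 lie head to head on chromosome 1, with 215 bases between their rows (55077834 to 55087932 and 55088148 to 55091317, GRCm38). The stretch between them holds matches to a heat shock element of 3 units, the site type bound by Hsf1, searched as GAANNTTCNNGAA and its reverse complement TTCNNGAANNTTC. RefSeq promoter windows (GRCm38.p6, 250 bases before to 50 after each annotated start) were found for 64 of the 79 members. Of these 4 held the motif (6.25%), against 0.662% of all 27025 genes with a window. Hspd1 and Hspe1 each count among the 4, although their matches lie in the same shared stretch. Hspa8, Hspa9, Hsp90aa1 and Hsp90ab1 had no window and were not searched. The windows of Hspa1a, Hspa1b and Dnajb1 held no match. Of 25 lower members with a window 3 held the motif, as did 0 of 14 higher members and 1 of 17 that did not pass. The sites are shown because they lie at the chaperonin pair and at Hsph1, all 3 of which fell. A part of the motif in these falls was not tested. Each is written 5′ to 3′ on the gene's own strand with the motif in capitals, and those of Hspd1 and Hspe1 overlap on opposite strands.
Hspd1 (chr1:55088050-55088079, minus strand): gccttccgGAAGGTTCTAGAAcggaccgtg
Hspe1 (chr1:55088056-55088085, plus strand): ccgttctaGAACCTTCCGGAAggccccgcg
Hsph1 (chr5:149636279-149636308, minus strand): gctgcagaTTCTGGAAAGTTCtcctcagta
Dnajb6 (chr5:29735844-29735873, plus strand): agctccgaGAATCTTCCGGAAcgctagacc
The match of Hspd1 begins at position -139 and that of Hspe1 at -84 from their annotated starts, and that of Dnajb6 at -46, whereas the match of Hsph1 lies just after a start. Hspd1, Hspe1 and Hsph1 were lower, and Dnajb6 overlapped between the groups at 94.7 ± 4.52 and 95.7 ± 0.882 CPM (0.01 ± 0.05, adjusted p = 0.816). A match to these letters is not a measured binding site, and windows without them may hold other forms of the element.

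All 8 CCT genes with more than trace counts were lower, by unequal amounts. Cct7 (the eta subunit) fell most, from 469, 461 and 405 CPM to 291, 290 and 291 CPM (-0.62 ± 0.06, adjusted p = 2.08e-06, 1.53-fold lower). Cct3 went from 441, 429 and 396 CPM to 316, 310 and 317 CPM (-0.43 ± 0.05, adjusted p = 1.5e-05). Cct6a followed at 303, 294 and 318 CPM against 246, 235 and 224 CPM (-0.38 ± 0.05, adjusted p = 4.49e-05). In each of these genes the Dia2 libraries lay below the lowest control library.

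The other CCT subunits fell by less. Cct5 was at 481, 467 and 437 CPM in the control and 369, 364 and 361 CPM in the Dia2 libraries (-0.34 ± 0.05, adjusted p = 7.27e-05). Tcp1, which encodes the alpha subunit, was at 595, 578 and 599 CPM and at 486, 476 and 455 CPM (-0.32 ± 0.05, adjusted p = 6.91e-05). Cct4, Cct8 and Cct2 had the smallest falls of the class at -0.24 ± 0.04, -0.23 ± 0.04 and -0.17 ± 0.04 (adjusted p = 0.000366, 0.000532 and 0.00418). Cct2, the most abundant subunit gene per length, moved from 669, 649 and 641 CPM to 586, 573 and 577 CPM, again without overlap.

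Summed over these 8 genes, the level was 3612, 3526 and 3440 CPM in the control and 2857, 2795 and 2765 CPM in the Dia2 libraries. The sums were apart, with group means in a ratio of 1.26. The count ratio of Cct7 to Cct2 was 0.701, 0.71 and 0.632 with control siRNA and 0.497, 0.506 and 0.503 with Dia2 siRNA. This pair was chosen after the values were seen and joins the genes with the largest and the smallest fall of the 8. The exact two-sided permutation test gave p = 0.1, the smallest possible (0.15 adjusted). It does not allow for that choice, so it gives no support for unequal falls. Per length, the highest of the 8 genes (Cct2 in every library) stood 2.24 to 2.32 times above the lowest (Cct4) in the control and 2.47 to 2.52 times above the lowest (Cct7) in the Dia2 libraries, in deposited RPKM. The row of Cct6a spans 7116 bases of a gene that RefSeq gives as 59088 bases long in GRCm38.p6, so its level per length is uncertain. Rows of Cct7, Cct8 and Tcp1 overlap another gene (1700040I03Rik, Usp16 and Acat3), whose reads cannot be told apart without a stated strand setting.

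CCT relatives outside the somatic ring were near 0. Cct6b had 6 to 24 counts per library and did not pass (0.32 ± 0.54, adjusted p = 0.633). Cct8l1 had 2 counts in Dia2 replicate 3 and 0 in the other libraries.

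**Figure D2:**
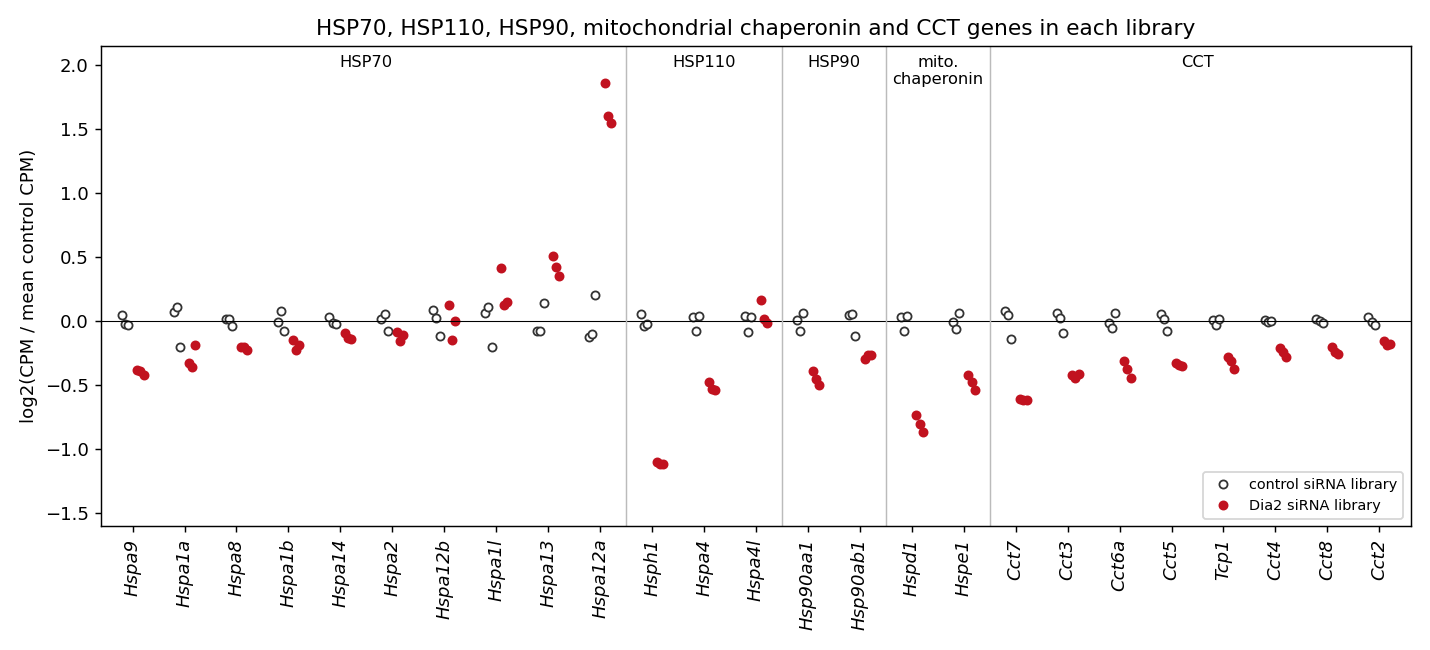
Level of each HSP70, HSP110, HSP90, mitochondrial chaperonin and CCT gene with a mean of at least 1 CPM in each library, as log2 of its CPM over the mean control CPM (vertical axis). Open points are the 3 control siRNA libraries and filled points the 3 Dia2 siRNA libraries. The filled points of the 8 CCT genes, of both HSP90 genes, of Hspd1 and Hspe1 and of Hsph1 and Hspa4 lie below the open points, and those of Hspa12a and Hspa13 lie above them.

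Partners of CCT were measured as listed genes that are not members. Of the 3 lists that follow 58.3%, 57.1% and 66.7% were called, against 59.2% of all genes tested. Of 12 genes of prefoldin, which hands clients to CCT, and of phosducin-like and related helpers, 6 were lower, 1 was higher and 5 did not pass, with a median log2 fold change of -0.19. Pdcl3, a phosducin-like CCT partner, fell from 90.3 ± 3.44 to 67.5 ± 1.82 CPM (-0.42 ± 0.05, adjusted p = 1.01e-05). The prefoldin genes Pfdn2 and Pfdn1 fell at -0.36 ± 0.06 and -0.34 ± 0.05, the prefoldin-like Pdrg1 at -0.35 ± 0.04, and Pfdn5 was the gene that rose (0.22 ± 0.04). Of 7 genes of the cofactors that assemble tubulin after CCT, 4 were lower and none was higher. Tbcel, a tubulin-binding relative of the cofactors, fell from 41.2 ± 2.37 to 19.5 ± 1.13 CPM (-1.08 ± 0.07, adjusted p = 7.51e-08). Tbcc, Tbcb and Tbcd were lower at -0.52 ± 0.06, -0.37 ± 0.06 and -0.33 ± 0.05. Tbce was higher without control replicate 3 (0.14, adjusted p = 0.036). Tbca was higher with upper-quartile factors (0.13, adjusted p = 0.0245) and with a mean of at least 1 CPM (adjusted p = 0.0378).

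Of 15 actin and tubulin genes, the main clients of CCT, 8 were lower, 2 higher and 5 neither. The lower call of Tuba1b was lost without control replicate 3 (-0.44, adjusted p = 0.0736). Conversely, Tubb4b was lower without control replicate 3 (-0.12, adjusted p = 0.00445), and Tuba1a was higher without control replicate 1 (0.28, adjusted p = 0.021). The cytoplasmic actins Actb and Actg1 fell at -0.47 ± 0.05 and -0.33 ± 0.04, while Acta2, the smooth muscle actin, rose at 0.36 ± 0.05. Among the tubulins Tuba4a, Tubb6 and Tuba1c were lower at -0.64 ± 0.07, -0.57 ± 0.07 and -0.51 ± 0.08, and Tubb3 rose at 0.96 ± 0.08.

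J protein genes moved in both directions. Of 44 members 36 were tested, of which 14 fell, 9 rose and 13 did not pass, with a median log2 fold change of -0.07. The share called, 63.9%, was near the 59.2% of all genes tested. Summed J protein levels were 2361 to 2475 CPM in the control and 2266 to 2337 CPM in the Dia2 libraries.

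The J proteins with larger falls served different places in the cell. Dnajc27, which encodes a small GTPase with a J domain, was at 20.6, 20.6 and 18.9 CPM in the control and 9.78, 8.64 and 8.51 CPM in the Dia2 libraries (-1.16 ± 0.07, adjusted p = 7.53e-08, 2.23-fold lower). It was the largest fall of all members. Dnajb5 went from 9.72, 10.1 and 10.3 CPM to 5.18, 4.98 and 4.57 CPM (-1.03 ± 0.08, adjusted p = 4.8e-07, 2.05-fold lower). Dnajc13, known as RME-8 and working at endosomes, went from 198, 204 and 218 CPM to 149, 144 and 142 CPM (-0.51 ± 0.05, adjusted p = 2.44e-06). Dnajc2, the ribosome-bound partner of Hspa14, moved from 58.0, 52.4 and 61.8 CPM to 41.5, 40.9 and 39.1 CPM (-0.50 ± 0.06, adjusted p = 2.58e-05). None of these 4 genes overlapped between the groups.

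The general J proteins that serve cytosolic HSP70 were lower or did not pass. Dnaja1, a main HSP70 partner, was at 256, 249 and 273 CPM in the control and 208, 198 and 192 CPM in the Dia2 libraries (-0.38 ± 0.05, adjusted p = 4.08e-05). Its row overlaps that of Smu1. Dnaja2, the J protein gene with the highest level per length (64.3 RPKM in the control libraries), and Dnajb2 fell at -0.18 ± 0.05 and -0.35 ± 0.06, and Dnajc7, which binds both HSP70 and HSP90, at -0.26 ± 0.05. In CPM Dnaja1 stood above Dnaja2 (214 CPM in the control libraries), but its deposited length is 5790 bases against 2839. Dnajc5, the cysteine string protein of vesicles, was lower at -0.14 ± 0.04 (adjusted p = 0.0103) but not without Dia2 replicate 2 (adjusted p = 0.0611). Dnajb1, the classical heat-inducible partner of HSP70, stood at 68.4, 65.5 and 63.5 CPM and at 61.9, 61.1 and 60.5 CPM. It did not pass (-0.11 ± 0.05, adjusted p = 0.0681) although the groups did not overlap, and it passed without control replicate 3 (-0.13, adjusted p = 0.00758). Dnaja4 and Dnajb4 overlapped between the groups, at 0.04 ± 0.06 and -0.06 ± 0.07.

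Among J proteins of the nucleus, Dnajc8, linked to splicing, and Dnajc9, which binds histones, rose at 0.24 ± 0.04 and 0.19 ± 0.04. Dnajc24, which takes part in diphthamide synthesis, did not pass with all libraries (0.16 ± 0.07, adjusted p = 0.0729) but passed without control replicate 3 (0.0261) or Dia2 replicate 1 (0.0454).

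Of 9 J protein genes listed for the endoplasmic reticulum 5 were higher (55.6%) and 2 lower (22.2%), against 29.3% and 29.9% of all genes tested. Dnajc14, a reticulum membrane J protein that the list leaves out, rose at 0.19 ± 0.04, and with it 6 of 10 were higher. It was added after the values were seen, and its row overlaps that of Ormdl2. Dnajc16 had the largest rise of the J proteins, from 14.7, 15.1 and 13.0 CPM to 25.1, 27.6 and 26.1 CPM (0.88 ± 0.07, adjusted p = 5.85e-07, 1.84-fold). Dnajb11, a soluble partner of the reticulum's own HSP70, went from 115, 115 and 109 CPM to 149, 150 and 154 CPM (0.41 ± 0.04, adjusted p = 5.12e-06). Dnajc10, a J protein with disulfide reductase activity, went from 210, 203 and 226 CPM to 288, 274 and 270 CPM (0.38 ± 0.05, adjusted p = 4.43e-05). For Dnajc16, Dnajb11 and Dnajc10 the Dia2 libraries lay above the control libraries.

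The membrane J protein gene Dnajb14 also rose at 0.40 ± 0.08. Dnajc1 rose at 0.14 ± 0.05 (adjusted p = 0.015), a call lost without control replicate 2 (0.0718), Dia2 replicate 2 (0.0801) or Dia2 replicate 3 (0.0571), and its row overlaps that of Mllt10. Dnajc3, an inhibitor of the kinase PERK, fell at -0.18 ± 0.05 and Dnajc18 at -0.37 ± 0.06. Dnajb12 and Dnajc25 did not pass, at -0.12 ± 0.05 and -0.02 ± 0.06, and Dnajb12 passed without control replicate 3 (-0.13, adjusted p = 0.00788).

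J proteins of the mitochondrion numbered 7, of which 3 were lower and 1 was higher. The share called, 57.1%, was near that of all genes tested (59.2%). Dnajc11, found at the contact sites of the inner and outer membrane, went from 52.9, 54.4 and 47.7 CPM to 36.0, 34.0 and 32.4 CPM (-0.60 ± 0.06, adjusted p = 7.06e-06). Dnaja3, the matrix J protein that works with Hspa9, went from 51.3, 51.0 and 50.9 CPM to 39.2, 39.3 and 40.2 CPM (-0.37 ± 0.05, adjusted p = 3.52e-05). Dnajc15 fell at -0.27 ± 0.07, and Dnajc28 rose from 2.26, 2.92 and 2.58 CPM to 4.41, 3.29 and 3.44 CPM (0.52 ± 0.14, adjusted p = 0.00801). Dnajc19, of the import motor, did not pass at 0.14 ± 0.06 (adjusted p = 0.0614), but passed without control replicate 1 (0.0481) or 3 (0.0221). Dnajc4 and Dnajc30 did not pass.

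Listed partners of the mitochondrial chaperones were lower in 8 of 15 genes (53.3%, which is also the share called) and higher in none, against 29.9% lower and 59.2% called of all genes tested. Grpel1, the nucleotide exchange factor of Hspa9, fell from 94.7 ± 5.2 to 56.5 ± 1.65 CPM (-0.75 ± 0.05, adjusted p = 1.84e-07). The protease gene Htra2 fell at -0.82 ± 0.06, the Hspa9 helper Dnlz at -0.46 ± 0.07 and the import motor subunit Pam16 at -0.35 ± 0.07. The list's median log2 fold change was -0.20. Without control replicate 3 Clpp (-0.21, adjusted p = 0.00279) and Spg7 (-0.18, adjusted p = 0.00504) were also lower.

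Small heat shock proteins were higher in 4 of 7 tested genes (57.1%) and lower in 1, against 29.3% and 29.9% of all genes tested. Hspb8, a partner of the co-chaperone Bag3, rose from 35.2, 39.6 and 36.9 CPM to 46.6, 47.6 and 48.8 CPM (0.36 ± 0.06, adjusted p = 0.000199). Hspb6, the most abundant per length (18.7 RPKM in the control libraries), rose from 29.96, 30.1 and 26.7 CPM to 36.1, 35.5 and 37.2 CPM (0.33 ± 0.06, adjusted p = 0.000712). Hspb7, best known from muscle, was scarce at 0.872, 0.974 and 0.493 CPM and rose to 2.26, 2.02 and 1.97 CPM (1.39 ± 0.22, adjusted p = 0.00014, 2.62-fold). In these 3 genes the lowest Dia2 library exceeded the highest control library.

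Hspb11, which is a subunit of intraflagellar transport (Ift25) rather than a classical chaperone, rose at 0.43 ± 0.11 (adjusted p = 0.00537). Hspb1, the HSP27 gene, moved the other way, from 11.7, 11.5 and 9.78 CPM to 8.13, 8.66 and 7.95 CPM (-0.42 ± 0.08, adjusted p = 0.000956). Hspb2 and Hspb9 did not pass and lay under 1 CPM. The small heat shock protein gene Cryab, which the name rule leaves out, rose from 79.7 ± 6.13 to 122.7 ± 2.1 CPM (0.62 ± 0.06, adjusted p = 1.56e-06).

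**Figure D3:**
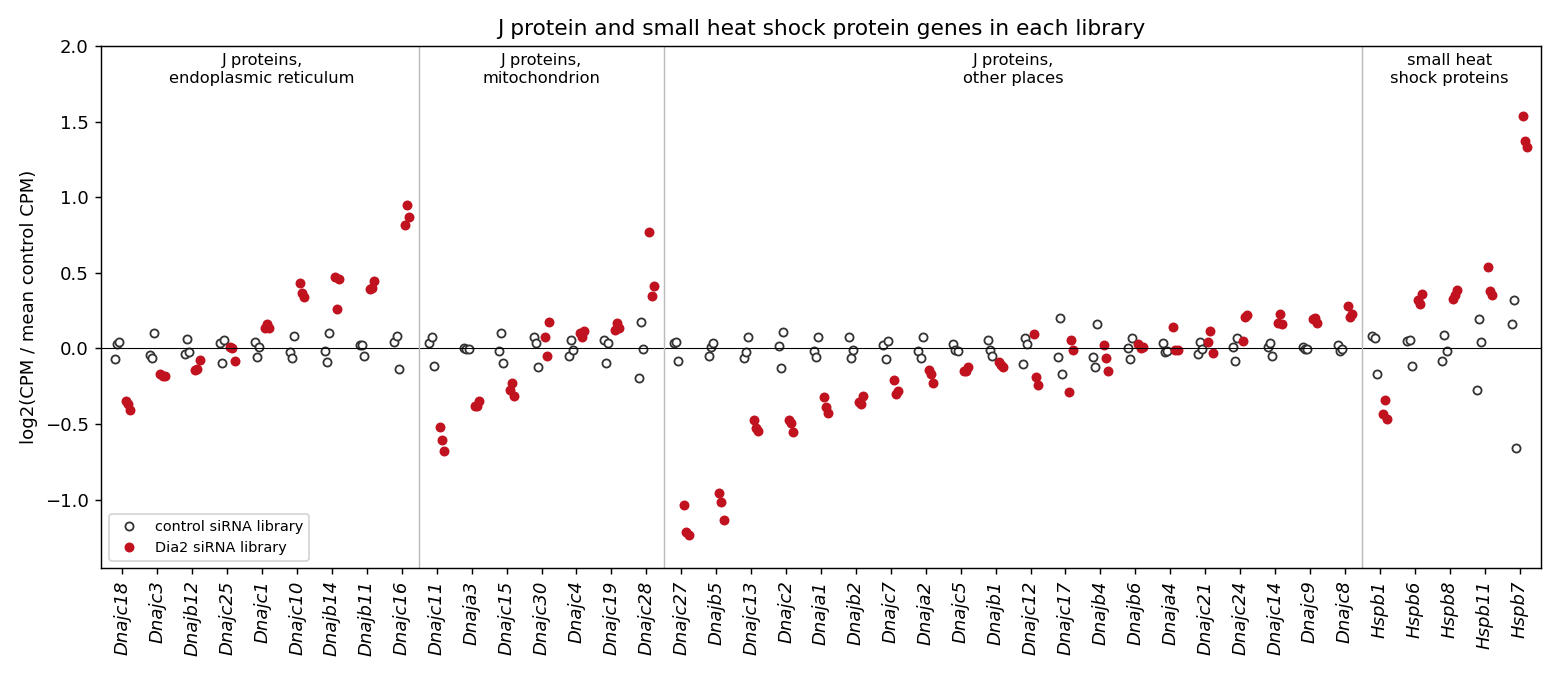
Level of each J protein and small heat shock protein gene with a mean of at least 1 CPM in each library, as log2 of its CPM over the mean control CPM (vertical axis), ordered by place and by change. Open points are control siRNA libraries and filled points Dia2 siRNA libraries. Dnajc27 and Dnajb5 lie lowest, and Dnajc16 and Hspb7 lie highest in their groups.

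The members that did not pass the filter were Cct8l1, Hspb3, Dnajb3, Dnajb7, Dnajb8, Dnajb13, Dnajc5b, Dnajc5g, Dnajc6 and Dnajc22. Hspb3, Dnajb8 and Dnajc5g had no count in any library. The largest value among these 10 genes was 22 counts, for Dnajc22 in Dia2 replicate 2. For the 3 genes with no count, the limit that a count of 0 allows, set at 6 counts because all counts are even, corresponds to 0.0534 to 0.087 CPM and covers counting error only.

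Listed genes of the heat shock response that are not members showed no shared direction. Hsf1 did not pass with 44.7 ± 3.53 CPM under control and 45.3 ± 1.48 CPM under Dia2 siRNA (0.02 ± 0.06, adjusted p = 0.848). Hsf2 did not pass with all libraries (0.16 ± 0.08, adjusted p = 0.121) but was higher without control replicate 3 (0.25, adjusted p = 0.00133). Of the 16 genes of this list 4 were lower, 2 higher and 10 neither (37.5% called, against 59.2% of all genes tested), with a median log2 fold change of -0.02. Sqstm1, an autophagy receptor, fell at -0.59 ± 0.06. The 2 higher genes were Hmox1, which encodes a heme oxygenase (0.49 ± 0.04), and Cryab, the small heat shock protein gene named above (0.62 ± 0.06). Bag3, the co-chaperone of small heat shock proteins and an Hsf1 target, did not pass (0.06 ± 0.05, adjusted p = 0.353).

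Co-chaperones of HSP70 and HSP90 were lower in 13 of 25 genes (52.0%) and higher in 1, with a median log2 fold change of -0.15. The 56.0% called in either direction compare with 59.2% of all genes tested, of which 29.9% were lower. Tomm70a, the import receptor that docks HSP70 and HSP90 at mitochondria, fell from 166 ± 9.29 to 86.4 ± 4.55 CPM (-0.94 ± 0.06, adjusted p = 4.63e-08). Hspbp1, a nucleotide exchange factor of HSP70, was lower at -0.81 ± 0.08, and Fkbp8 and Unc45a, which bind HSP90, at -0.51 ± 0.06 and -0.50 ± 0.07. Stip1, which passes clients from HSP70 to HSP90, fell at -0.36 ± 0.05. Tomm34 was the gene that rose (0.22 ± 0.06). Some calls hung on single libraries. Ahsa2 did not pass without Dia2 replicate 1 (adjusted p = 0.0593), nor St13 without Dia2 replicate 2 (0.0584) or 3 (0.0595). Chordc1, whose groups overlapped, did not pass in several settings, such as without control replicate 3 (0.0852). Conversely, Bag2 was lower without control replicate 3 (0.017) and Cdc37l1 without Dia2 replicate 1 (0.0446). Stip1 and 4 further genes of the heat shock response list are also co-chaperones in this list.

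**Figure D4:**
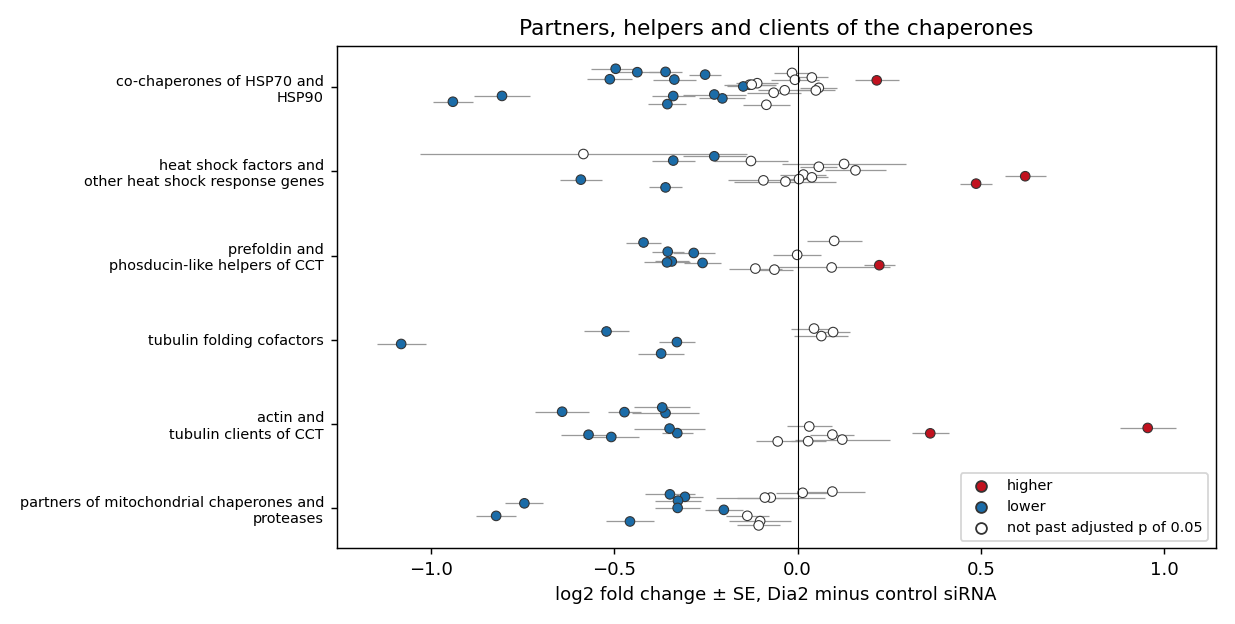
Log2 fold change with its SE (horizontal axis) of each tested gene in the 6 lists of partners, helpers and clients, 1 row per list with points spread vertically for legibility. Filled points passed an adjusted p of 0.05, and open points did not. The points of the tubulin cofactors and of the mitochondrial partners that passed all lie below 0, while the actin and tubulin list has both directions.

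Words of the 3′ UTR that an earlier scan of these same fold changes had picked out were looked up in the members, as a description without independent support. Each word was searched in the longest annotated 3′ UTR of GENCODE M21. TATGTGA or ATGTGAA occurred in 24 tested members, of which 14 were lower and 6 higher (median log2 fold change -0.23). In the 44 members without either word 19 were lower and 9 higher (-0.09). The length of the 3′ UTR was not taken into account, and some members without a word have short ones, such as Hspa8 with 83 bases. Among all tested genes with one of these words 40.1% were lower and 26.5% higher. GCAGTAC occurred in 4 members, of which 3 were higher and none lower, and 51% of all 702 tested genes with it were higher and 20.7% lower. Sites are shown for Hspa12a and Dnajc16, which hold GCAGTAC and rose, and for Hsph1, Hspd1 and Dnajb5, which hold TATGTGA and fell, with the word in capitals, on the gene's own strand (GRCm38).
Hspa12a (chr19:58798629-58798649, minus strand): aattacaGCAGTACccccttc
Hspa12a (chr19:58798053-58798073, minus strand): cctaaaaGCAGTACgtaaacc
Hspa12a (chr19:58795985-58796005, minus strand): aggctgcGCAGTACgtatgcc
Dnajc16 (chr4:141761941-141761961, minus strand): ccctctaGCAGTACatgccga
Hsph1 (chr5:149617445-149617465, minus strand): gccatagTATGTGAtcctgta
Hspd1 (chr1:55077861-55077881, minus strand): atccaatTATGTGAcaacctt
Dnajb5 (chr4:42958455-42958475, plus strand): tttgtgaTATGTGAagctgct
Hspa12a holds 3 copies of GCAGTAC, and Dnajc16 and Dnajb14 hold 1 each, while Hspa12b holds 1 and did not pass. The 3 that rose also hold 1 copy of a word of the other kind, ATGTGAA in Hspa12a and TATGTGA in Dnajc16 and Dnajb14. Hspa13, Dnajc1 and Dnajc9 hold TATGTGA or ATGTGAA without GCAGTAC and rose, at 0.43, 0.14 and 0.19. The printed sites come only from genes whose change went with the word. The 3′ UTRs of Dnajc27, the member with the largest fall, and of Hspb7, which rose more than Dnajc16, hold none of the words.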

How the data were processed

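Per the file headers, each of 6 libraries has a column of deposited counts and one of RPKM in a single table, with a coding length per gene. Only 37.8% of these lengths are divisible by 3, so most are not plain coding lengths. Comparisons per length rest on them. The submitters' processing notes name bcl2fastq, TopHat2 2.0.6 and HTSeq with no role, and human builds (hg19, GRCh37). The table's symbols and chromosomes are mouse, and 99.3% of 20762 rows with a RefSeq symbol, and all 79 members, overlapped that gene in GRCm38.p6. Every deposited count is a whole, even number. The sources used here do not give the annotation or strand setting.

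Low genes were removed with filterByExpr (minimum 10 counts, 15 in total), and counts were scaled by TMM and tested with edgeR 4.0.16 (quasi-likelihood, robust; limma 3.58.1, DESeq2 1.42.0, R 4.3.3), with no other term and Benjamini-Hochberg adjustment at 0.05. On simulated counts for this comparison (14151 genes), 87% of changes of 0.5 and 100% of changes of 1 (log2) were recovered. Changes were placed in 100 genes per size, all with a mean of at least 1 CPM. The recovery therefore does not cover scarcer members, nor data in which 59.2% of genes are called. Deposited RPKM values served only to compare genes per length.

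The members and lists were chosen with earlier results of these data known. Named were every tested member of the HSP70, HSP110, HSP90, chaperonin and CCT classes, J and small heat shock proteins past the threshold with a log2 change of at least 0.5 and the most abundant of each class, and up to 4 genes past the threshold per list. Other genes are named to describe their class or list.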

Additional observations from a re-analysis of the deposited data

How the results depend on the processing

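The counts of members and of all genes stayed within 1.5 times their main values under every alternative. These were DESeq2 size factors, upper-quartile factors, no composition factor, no filter beyond 1 count, a mean of at least 1 CPM, DESeq2, limma-voom, the replicate block, each library left out, and, chosen after seeing the data, halved counts, no Rn45s, and no library of each group richest in Rn45s. Members lower numbered 30 to 37 and members higher 14 to 18, and the same 8 CCT genes kept their call in each setting. Of the 66 members with a value in all 17 alternative settings, 56 kept their call, 10 changed it in at least 1, and none reversed. Cct6b, Hspb2 and Hspb9, all under 1 CPM, lacked a value at a mean of at least 1 CPM, as Cct6b and Hspb9 did with halved counts, and did not pass in the others. Same-numbered libraries showed no sign of pairing: their deviations from the group means correlated at -0.22, -0.075 and -0.276 over 9945 genes. Deviations from a group mean are not independent of each other, so this check cannot exclude pairing. With the replicate block 32 members were lower and 14 higher, 8 CCT genes and 22 J protein genes were called, and 3877 genes were higher and 3895 lower. Depth limits statements about the members under 1 CPM.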
